A study of Mus musculus with 4 samples.

Results

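The mRNAs of 10 interferon-induced GTPase genes were followed in single cells of mouse bone and bone marrow: Iigp1, Gm4951, Gm4841, Igtp, Irgm1, Irgm2, Tgtp1, Tgtp2, Gbp2 and Gbp3. They were picked by symbol from the 32285 genes of the series, and all 10 had a row in both matrices. The choice rested on their UMIs in stromal cells set against other mesenchymal and blood cells, and in the old library set against the young library. Those 2 contrasts are therefore described here without a test for these genes, and tests were kept for CD24 status and for genes outside the 10.

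The cells are taken to come from 2 INK-ATTAC mice, 1 young (6 months) and 1 old (24 months), both untreated. The line carries a transgene in which a fragment of the p16 promoter drives an inducible caspase 8, and both mice are taken to have carried it. The study's methods name male and female untreated INK-ATTAC mice of old age for its sequencing work. They do not give the line of the young library. They give neither the sex nor the animal count of these 2 libraries, and each is treated here as 1 mouse. Femurs and tibias were digested, red cells were lysed, lineage-positive blood cells were depleted on magnetic beads, and live CD45- cells were sorted and stained with a barcoded CD24 antibody (CITE-seq, which counts an antibody tag beside the mRNA of the same cell). Each mouse gave 1 droplet library read from the 3' end of transcripts, so a difference between the ages cannot be told apart from a difference between animals or libraries. The values are unique molecular identifiers (UMIs), each standing for 1 captured mRNA molecule. A level is given as CPM, the UMIs of a gene per 1000000 UMIs summed over the cells of a group, with an exact 95% Poisson interval that covers counting error only.

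Immunity-related GTPases (IRGs) and guanylate-binding proteins (GBPs) are among the most strongly interferon-induced proteins of mouse cells, and they assemble on the vacuoles of intracellular parasites and bacteria and help to break them open. Irgm1, Irgm2 and Igtp encode regulatory IRGs that sit on the membranes of the cell and hold the effector IRGs in an inactive state, while Iigp1, Tgtp1 and Tgtp2 encode effectors that load onto the vacuole. Gbp2 and Gbp3 encode larger GTPases of the dynamin superfamily. Promoters of such genes often hold the gamma-activated site (GAS), through which interferon gamma acts, and the interferon-stimulated response element (ISRE), through which type I interferon acts.

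These motifs are shown first because they had no part in the rule that picked the genes. The cores searched on both strands were TTCNNTTTC for the ISRE and TTCNNNGAA for the GAS, and a match is a description of letters only. The promoter entries searched, from RefSeq on build GRCm38.p6, included 8 for 7 of the 10 genes: Gbp2, Gbp3 (2 entries), Igtp, Irgm1, Irgm2, Tgtp1 and Tgtp2. Promoters of Gm4951, Gm4841 and Iigp1 were not searched, so the motif counts say nothing about these genes. An ISRE core lay within the 250 bases before the start in 7 of the 7 genes. By entry it lay in 7 of 8, all but the second Gbp3 entry, against 7.13% of the 32851 entries searched. A GAS core lay there in 4 of the 7 genes (Igtp, Irgm2, Tgtp1 and Tgtp2) and 4 of the 8 entries, against 7.02% of the entries searched. The motifs were not particular to these genes. Of 10 other interferon-inducible GTPase genes searched, 5 held an ISRE core in the same 250 bases and 4 held a GAS core. Below are 5 of these promoters, 250 bases each up to the base before the start, with the matches in capitals. Igtp spans chr11:58199306-58199555 (plus strand), Irgm2 chr11:58214727-58214976 (plus), Tgtp1 chr11:48992247-48992496 (minus), Tgtp2 chr11:49064213-49064462 (minus) and Gbp2 chr3:142620413-142620662 (plus).
Igtp: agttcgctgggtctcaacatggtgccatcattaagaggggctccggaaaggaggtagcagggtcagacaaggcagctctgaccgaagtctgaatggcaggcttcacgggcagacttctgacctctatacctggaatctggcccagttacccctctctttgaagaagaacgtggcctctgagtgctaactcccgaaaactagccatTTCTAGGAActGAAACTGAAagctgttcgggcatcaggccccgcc
Irgm2: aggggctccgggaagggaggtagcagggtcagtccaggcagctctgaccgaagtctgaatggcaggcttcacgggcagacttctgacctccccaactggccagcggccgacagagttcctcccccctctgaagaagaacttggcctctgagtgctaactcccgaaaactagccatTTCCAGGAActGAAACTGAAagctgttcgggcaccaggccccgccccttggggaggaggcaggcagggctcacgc
Tgtp1: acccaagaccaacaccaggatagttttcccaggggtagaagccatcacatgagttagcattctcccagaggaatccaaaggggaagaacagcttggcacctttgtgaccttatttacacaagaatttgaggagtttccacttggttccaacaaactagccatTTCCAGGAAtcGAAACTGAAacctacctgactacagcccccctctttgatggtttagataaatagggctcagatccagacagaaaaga
Tgtp2: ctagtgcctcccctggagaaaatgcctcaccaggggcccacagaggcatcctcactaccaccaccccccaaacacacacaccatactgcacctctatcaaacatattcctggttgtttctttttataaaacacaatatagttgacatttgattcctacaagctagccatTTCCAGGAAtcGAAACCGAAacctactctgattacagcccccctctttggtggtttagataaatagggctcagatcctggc
Gbp2: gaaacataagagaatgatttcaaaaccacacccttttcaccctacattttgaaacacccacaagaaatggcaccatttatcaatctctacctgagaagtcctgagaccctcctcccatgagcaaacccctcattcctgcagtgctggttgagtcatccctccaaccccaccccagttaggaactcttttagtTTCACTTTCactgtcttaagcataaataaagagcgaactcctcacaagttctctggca

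In Igtp, Irgm2, Tgtp1 and Tgtp2 the capitals form the same arrangement, a GAS core followed after 2 bases by an ISRE core on the opposite strand. Counted back from the start, the GAS core began at base -45 in Igtp, -75 in Irgm2, -88 in Tgtp1 and -81 in Tgtp2. The arrangement sat in related sequence: the longest stretch of identical bases was 55 between Igtp and Irgm2, 27 between Tgtp1 and Tgtp2 and 20 between Tgtp1 and Irgm2. The genes are thus not independent examples of it. Gbp2 held an ISRE core alone, at bases -58 to -50. Irgm1 and the first Gbp3 entry each held 2 overlapping ISRE cores, between -30 and -16 and between -44 and -30. By gene body, Irgm1 lies at chr11:48865245-48871420, Tgtp1 at chr11:48985329-48992246 and Tgtp2 at chr11:49057196-49064212. Igtp lies at chr11:58199556-58207592, Irgm2 at chr11:58214977-58222783, Gbp3 at chr3:142560016-142573213 and Gbp2 at chr3:142620663-142638008. The genes not searched for motifs are Gm4951 at chr18:60212004-60248440, Gm4841 at chr18:60268301-60273267 and Iigp1 at chr18:60373616-60392634. The genes thus stand in clusters of neighbours. Tgtp1 and Tgtp2 are near-identical copies whose reads the counting could split or discard, and values for either are uncertain.

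Cells were kept with at least 200 genes and at most 20% mitochondrial UMIs, leaving 10063 young cells (81076421 UMIs) and 5607 old cells (66702846 UMIs). Each cell was put into a class by the UMIs of fixed marker genes. Stromal cells, the CXCL12-abundant leptin receptor-positive cells that line marrow vessels and hold blood stem cells, numbered 3060 (young) and 1880 (old), with medians of 5228.5 and 8372 UMIs per cell. Other mesenchymal cells (fibroblast, osteoblast, tendon, chondrocyte, pericyte or smooth muscle) numbered 4298 and 1990, and blood cells 1176 and 925. The markers that set the stromal class were high in it, with Lepr at 1524 CPM (young) and 1604 CPM (old) against 86.6 and 56.2 CPM in other mesenchymal cells. Blood marker lists varied in stromal cells of both mice. The summed level of 7 neutrophil genes was 729 and 710 CPM and of 7 erythroid genes 445 and 404 CPM. The sums of 6 macrophage genes (3.74 and 3.14 CPM) and of 5 T or NK cell genes (0.825 and 0.189 CPM) were low. The 2 libraries shared 19 kept barcodes, and doublets were called in 269 young and 57 old kept cells and retained.

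The IRG and GBP mRNAs were concentrated in stromal cells, although not to the same degree. Stromal cells held 22.4% (young) and 23.9% (old) of all kept UMIs. Of the UMIs of Gm4951 they held 92.8% and 94.2%, and of Iigp1 85.1% and 90.4%. At the other end stood Igtp, with 36.2% and 45.3%, and Irgm1, with 39.7% and 47.0%. All 10 genes were highest in stromal cells among the 3 groups in both mice, and 9 of them passed the filter of 20 UMIs in each library (all but Tgtp1). Of all 15346 genes that passed it, 36.3% had that pattern, and since the pattern belongs to the rule nothing is read from the count.

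Iigp1, an effector that coats the vacuole of Toxoplasma, stood at 221 CPM (214 to 228) in young and 505 CPM (494 to 516) in old stromal cells. In other mesenchymal cells it stood at 15.7 CPM in both mice, and in blood cells at 2.51 and 16.2 CPM. On the log2 scale of CPM, stromal cells were thereby above other mesenchymal cells by 3.82 (young) and 5.01 (old). Gm4951, a predicted GTPase gene related to Iigp1, showed an even steeper contrast. Its level was 229 CPM (222 to 236) and 356 CPM (346 to 365) in stromal cells, against 5.71 and 5.03 CPM in other mesenchymal cells and 4.33 and 7.36 CPM in blood cells, which is a log2 difference between the first 2 groups of 5.32 and 6.14. Gm4841, a further predicted gene of that kind, was sparse, with 96 and 127 UMIs in stromal cells (5.28 and 7.98 CPM) and 15 and 14 UMIs in other mesenchymal cells. For these 3 genes the log2 difference between stromal and other mesenchymal cells lay between 3.64 and 6.14 over both mice.

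The effector Tgtp2 was found at 5.39 CPM (4.38 to 6.57) in young and 14.6 CPM (12.8 to 16.7) in old stromal cells, and at 0.311 and 0.362 CPM in other mesenchymal cells. Its copy Tgtp1 was at the limit of detection, with 17 and 6 UMIs in stromal cells and 3 and 4 UMIs in other mesenchymal cells. Tgtp2 thus carried most of the stromal UMIs assigned to the pair.

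The regulators Igtp, Irgm1 and Irgm2 were spread more widely. Irgm2, a regulator found at the Golgi, was at 23.0 CPM (20.9 to 25.4) in young and 45.1 CPM (41.9 to 48.6) in old stromal cells, against 7.46 and 8.62 CPM in other mesenchymal and 1.38 and 3.25 CPM in blood cells. Irgm1, a regulator whose loss also harms blood stem cells, was at 25.3 CPM (23.0 to 27.7) and 43.1 CPM (40.0 to 46.5), against 11.5 and 13.9 CPM in other mesenchymal cells and 11.5 and 19.1 CPM in blood cells. Igtp, the regulator also named Irgm3 and found at the endoplasmic reticulum, was at 13.4 CPM (11.7 to 15.2) and 25.3 CPM (22.9 to 27.9), against 6.48 and 6.52 CPM and 9.03 and 13.9 CPM. For Igtp and Irgm1 the stromal level stayed within 4-fold of both other groups in each mouse.

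Of the guanylate-binding proteins, Gbp2 was at 39.3 CPM (36.4 to 42.3) in young and 81.0 CPM (76.7 to 85.6) in old stromal cells, and at 27.2 and 23.5 CPM in other mesenchymal cells. The log2 difference between these groups was the smallest of the 10 genes in the young mouse, at 0.53, and was 1.79 in the old mouse. Gbp3 was at 16.8 CPM (15.0 to 18.8) and 38.7 CPM (35.7 to 41.9) in stromal cells, against 5.74 and 6.41 CPM in other mesenchymal cells and 2.82 and 2.89 CPM in blood cells. Both GBP genes were low in blood cells, where Gbp2 stood at 3.51 and 5.70 CPM.

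Across 11 classes with at least 30 cells, the order of levels separated the genes further. In each mouse, 6 of the 10 genes were highest in the stromal class with an interval apart from that of the next class. Igtp departed from the rest: it was highest in megakaryocytes, the platelet-forming cells, at 39.0 CPM (28.5 to 52.0) in young and 71.7 CPM (56.9 to 89.1) in old cells. A UMI of Igtp was found in 32 of 78 young and 32 of 59 old megakaryocytes. Iigp1 and Gm4951, by contrast, had 0 UMIs in young and 1 UMI each in old megakaryocytes. In the young ones the interval of 0 UMIs reaches 3.13 CPM.

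Progenitors came close to stromal cells for Tgtp2, at 3.50 CPM (2.31 to 5.09) and 9.61 CPM (7.01 to 12.9), and these intervals overlapped those of stromal cells in both mice. Irgm1 was second in old progenitors at 27.3 CPM (22.8 to 32.5), below stromal cells, and stood at 14.4 CPM in young ones. Fibroblasts were second for Gbp2. In the young mouse their level of 36.7 CPM (34.2 to 39.3) could not be distinguished from the 39.3 CPM of stromal cells, while in the old mouse they stood at 35.4 CPM (32.5 to 38.5) against 81.0 CPM. Fibroblasts also carried most of the Iigp1 of the other mesenchymal cells, at 21.8 and 22.8 CPM, compared with 6.32 and 5.03 CPM in osteoblasts.

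**Figure D1:**
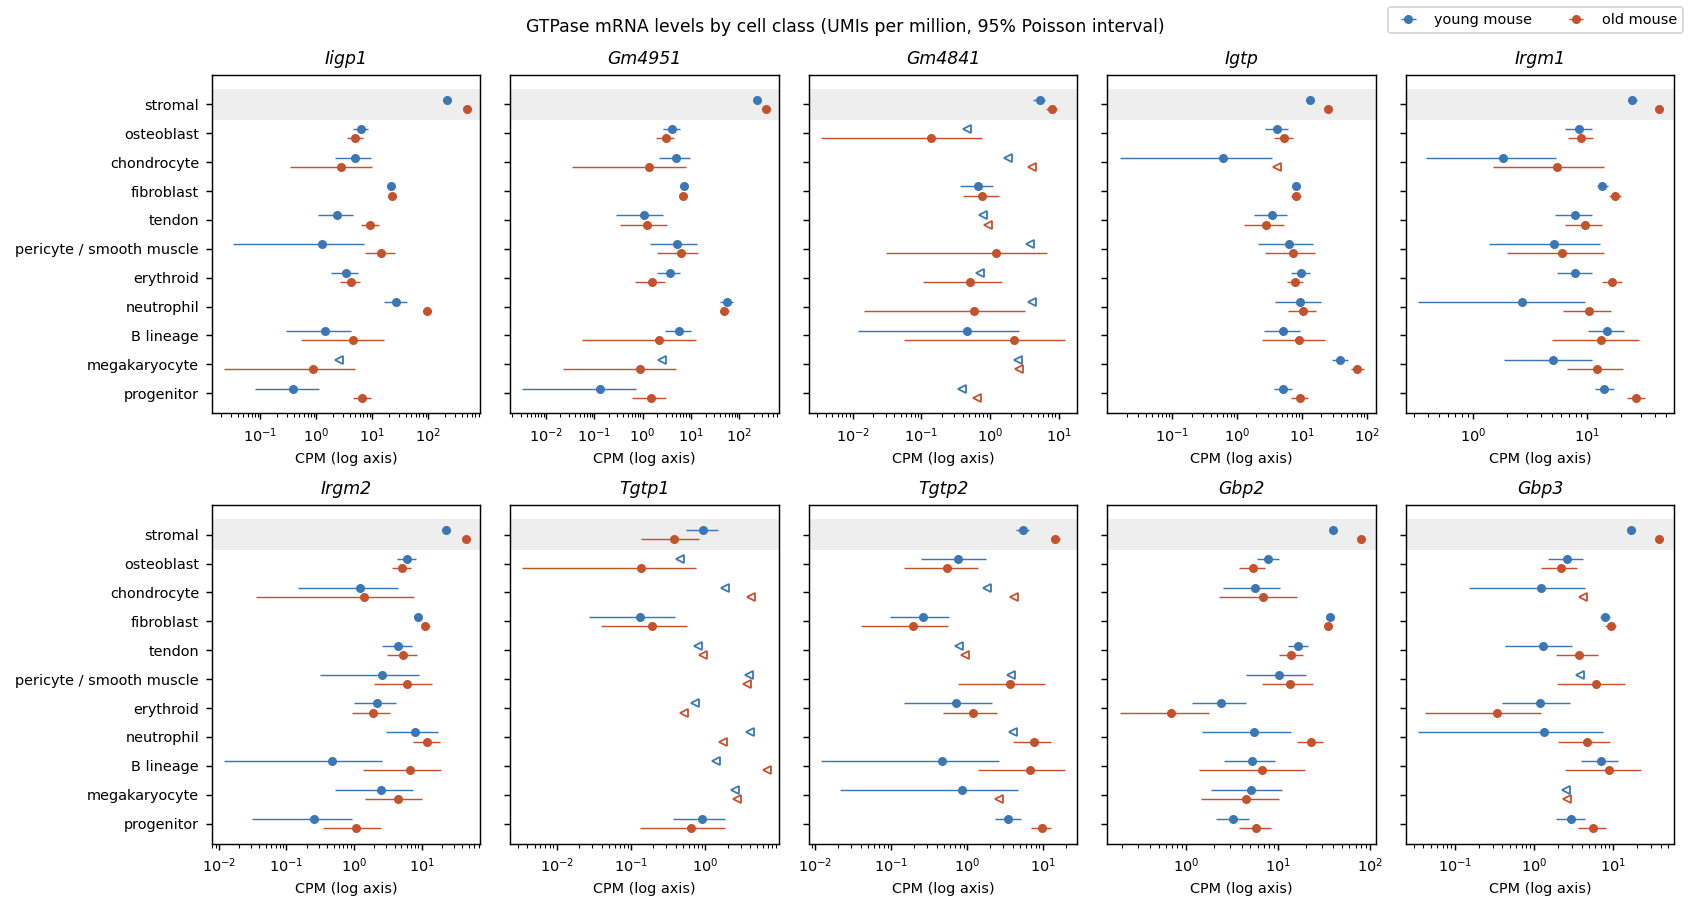
Level of each GTPase gene (CPM, log axis, 1 panel per gene) in 11 cell classes of the young (blue) and old (red) mouse. Points are summed UMIs in CPM with 95% Poisson intervals, and open triangles mark a floor of 3 UMIs where the count was 0. The shaded stromal class is highest for most genes, Igtp is highest in megakaryocytes at 39.0 and 71.7 CPM, and Gbp2 of young fibroblasts lies at the level of young stromal cells.

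The neutrophil class was second for Iigp1 (27.1 and 97.1 CPM) and for Gm4951 (55.5 and 48.8 CPM). Its cells with a UMI of either gene also carried stromal mRNA. In the 24 young and 60 old neutrophil-class cells with such a UMI, the 8 stromal markers summed to 24184 and 20267 CPM, against 3158 and 2418 CPM in neutrophil-class cells without one and 43703 and 39212 CPM in stromal cells with one. With called doublets removed, a check chosen after seeing these values, Iigp1 stood at 28.4 and 101 CPM in the class. With a stricter marker cut, also chosen after seeing the values, it stood at 26.0 and 83.6 CPM, Gm4951 at 52.1 and 29.8 CPM, and old Gbp2 at 14.5 CPM in place of 22.7 CPM. A single old cell held 36 of the 167 Iigp1 UMIs of the class, and a single old cell held 37 of its 84 Gm4951 UMIs. The same was seen for the 11 young and 11 old erythroid cells with such a UMI, whose stromal markers summed to 12116 and 7376 CPM against 201 and 100 CPM in the others. In old progenitors, 31 Iigp1 UMIs came from 14 of 140 cells, and the 17 old progenitors with a UMI of Iigp1 or Gm4951 had stromal markers at 268 CPM. The part of mixed droplets in the blood levels was not tested.

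Within the stromal class, most cells carried at least 1 UMI of these genes. A UMI of any of the 10 was found in 2431 of 3060 young cells (79.4%, exact Clopper-Pearson 95% interval 78.0 to 80.9) and in 1693 of 1880 old cells (90.1%, 88.6 to 91.4). In erythroid cells, which served as the background and were deeper (medians of 10881 and 14136.5 UMIs), the share with any of the 10 was 24.7% (19.8 to 30.2) and 34.5% (29.3 to 40.0). Gm4951 was found in 59.3% of young and 74.4% of old cells, and Iigp1 in 42.9% and 64.9%. In erythroid cells Gm4951 was found in 2.51% and 2.22% and Iigp1 in 2.51% and 2.85%. Gbp2 was found in 15.4% and 31.1% of stromal cells against 2.15% and 1.27% of erythroid cells, Gbp3 in 8.01% and 23.0% against 1.08% and 0.633%, and Irgm2 in 10.6% and 22.9% against 2.87% and 2.85%. For Igtp (6.14% and 13.2% of stromal cells) and Irgm1 (11.7% and 22.3%) the erythroid shares were 11.5% and 13.3%, and 10.0% and 19.6%, so the shares of these 2 genes were not read as expression.

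Old stromal cells were deeper, and a deeper cell shows more genes. When each stromal cell was thinned to 2000 UMIs, which left 2773 young and 1709 old cells, Iigp1 was found in 24.2% and 37.7%, Gm4951 in 34.5% and 45.4%, Gbp2 in 6.56% and 12.1% and Gbp3 in 2.70% and 7.08%. The share stayed higher in the old library for 9 of the 10 genes, and Tgtp1 was found in 4 young and 0 old thinned cells.

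The UMIs were uneven over stromal cells. The 10% of cells with the most Iigp1 held 64.2% (young) and 64.0% (old) of its UMIs, and the richest cell held 94 and 130 UMIs while the median cell held 0 and 1. Gm4951 was more even, with 40.4% and 37.8% in its richest 10% and medians of 1 and 2 UMIs. The genes were also found together. Among thinned young cells, Igtp was found in 5.65% of the 672 cells with an Iigp1 UMI and in 1.43% of the 2101 cells without, and among thinned old cells in 7.45% of 644 and 2.44% of 1065. The corresponding shares were 40.2% and 32.7% (young) and 53.3% and 40.7% (old) for Gm4951, and 10.1% and 5.43% (young) and 15.4% and 10.0% (old) for Gbp2. Each of the other 9 genes was found more often beside Iigp1 in young cells, as were 8 of the 9 in old cells, where Tgtp1 had no UMI.

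To set the GTPases against other interferon-response genes cell by cell, stromal cells of each mouse were split into quartiles by their share of UMIs from 30 type I response genes, a list that holds none of the 10. From the lowest to the highest quartile, Iigp1 went from 119 to 426 CPM (young) and from 228 to 955 CPM (old). Gbp2 went from 25.9 to 75.6 and from 38.6 to 157 CPM, and Igtp from 6.28 to 26.7 and from 9.06 to 55.3 CPM. Every gene but Tgtp1 was highest in the fourth quartile in both mice. Gm4951 changed less, from 177 to 301 CPM and from 234 to 560 CPM. Stromal markers also stood higher in the highest quartile than in the lowest: Lepr at 1610 against 1413 CPM and 1679 against 1381 CPM, Cxcl12 at 27538 against 23717 CPM and 24500 against 19676 CPM, and Adipoq at 1310 against 1229 CPM and 2231 against 1599 CPM. Median depth per cell was 4555, 5800, 5428 and 5142 UMIs in the 4 young quartiles and 6698.5, 9039.5, 8982.5 and 8419 UMIs in the 4 old quartiles, with the lowest quartile the shallowest. Since quartiles were set within each mouse, the same quartile stood at a higher type I level in the old mouse (697 against 451 CPM in the lowest, 3433 against 2408 CPM in the highest). In all 4 quartiles 9 of the 10 genes, all but Tgtp1, were higher in the old mouse, by as little as 21.9 against 20.3 CPM for Irgm1 in the lowest.

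**Figure D2:**
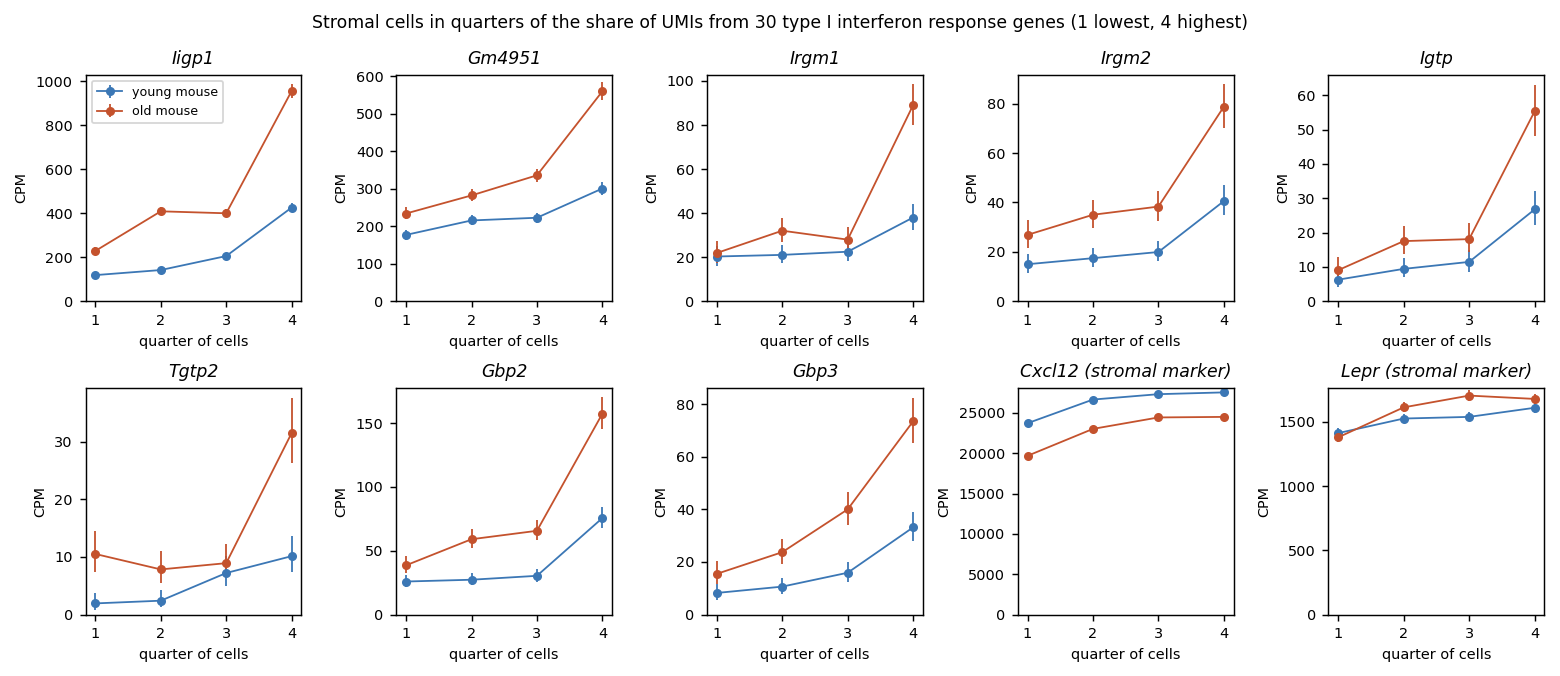
Level (CPM, linear axis from 0) of 8 GTPase genes and of the stromal markers Cxcl12 and Lepr in stromal cells split into quartiles by the share of UMIs from 30 type I response genes (1 lowest, 4 highest), for the young (blue) and old (red) mouse with 95% Poisson intervals. The GTPase genes are highest in the fourth quartile, with Iigp1 at 426 and 955 CPM there, while Lepr lies between 1381 and 1705 CPM throughout.

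Between the ages, 9 of the 10 genes were higher in the stromal cells of the old mouse. On the log2 scale of CPM (old minus young), the effectors Tgtp2 and Iigp1 differed by 1.44 (1.10 to 1.80) and 1.19 (1.14 to 1.25), the GBPs Gbp3 and Gbp2 by 1.20 (1.00 to 1.40) and 1.04 (0.91 to 1.18), and the regulators Irgm2, Igtp and Irgm1 by 0.97 (0.79 to 1.15), 0.92 (0.69 to 1.16) and 0.77 (0.60 to 0.94). Gm4951 and Gm4841 differed by 0.64 (0.58 to 0.69) and 0.60 (0.20 to 0.99). Tgtp1 went the other way on 23 UMIs, by -1.31 with an interval of -2.94 to 0.10. The genes past 2-fold were thus Tgtp2, Gbp3, Iigp1 and Gbp2, 4 of 10, where 2.38% of 14165 genes were 2-fold or more higher in old stromal cells. Doublet removal moved Iigp1 to 1.12, and thinning to 2000 UMIs per cell left 3 genes past 2-fold. Intervals lay above 0 for 9 of 10, against 17.8% of the same genes. The median over the 10 was 0.95 and over all genes 0.02, and since this contrast was part of the rule these counts are given as description.

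In the other mesenchymal cells as a whole, the old minus young difference was 0.00 (-0.18 to 0.19) for Iigp1, 0.01 for Igtp, 0.16 for Gbp3 and -0.18 for Gm4951. Of the 9 genes with at least 20 UMIs there, Irgm1 had an interval above 0, at 0.28 (0.07 to 0.48), and Gbp2 an interval below 0, at -0.21 (-0.36 to -0.07), while those of the other 7 spanned 0. None of the 9 passed 2-fold, where 2.77% of 15104 genes were 2-fold or more higher in the old mouse. The classes in this group did not all stand alike. In fibroblasts Iigp1 differed by 0.06 (-0.14 to 0.26) and Gbp2 by -0.05 (-0.21 to 0.11), while Irgm1 differed by 0.38 (0.14 to 0.62) and Irgm2 by 0.34 (0.05 to 0.64). Iigp1 was higher in old tendon cells by 1.98 (0.86 to 3.24), on 30 old and 9 young UMIs, and in old pericytes or smooth muscle by 3.52 (0.76 to 8.93), on 12 and 1 UMIs, against -0.33 (-1.01 to 0.35) in osteoblasts.

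In blood cells the difference was 2.69 (2.20 to 3.22) for Iigp1, 1.29 for Tgtp2, 1.23 for Irgm2 and 0.73 for Irgm1, with 3 of 8 genes past 2-fold, where 4.61% of 13261 genes were 2-fold or more higher in the old mouse. Old blood cells also held fewer B-lineage cells (49 against 371) and more neutrophil-class cells (341 against 165). Within single blood classes, Iigp1 was higher in the old neutrophil class by 1.84 (1.17 to 2.59), on 167 old and 20 young UMIs. The cells of that class with a UMI of Iigp1 or Gm4951 also carried stromal mRNA. Iigp1 was higher in old progenitors by 4.09 (2.41 to 6.44), on 31 and 3 UMIs, and stood at 0.29 (-0.72 to 1.35) in erythroid cells. Igtp was higher in old megakaryocytes by 0.88 (0.34 to 1.43), Irgm1 in old progenitors by 0.93 (0.55 to 1.31) and in old erythroid cells by 1.08 (0.50 to 1.70), and Tgtp2 in old progenitors by 1.46 (0.74 to 2.20). Other values lay at or below 0, among them Igtp in erythroid cells at -0.29 (-0.93 to 0.36), Gm4951 in erythroid cells at -1.23 (-2.60 to 0.06) and in the neutrophil class at -0.19 (-0.74 to 0.39), and Gbp2 in erythroid cells at -1.81 (-3.94 to -0.02) on 4 old and 10 young UMIs. The difference between cell groups was not tested, as each age had 1 mouse.

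Other measures moved between the libraries as well. Among the stromal markers, Hp stood at 6201 and 3812 CPM and Adipoq at 1290 and 2101 CPM (young and old). The megakaryocyte marker sum in stromal cells was 15.1 and 26.6 CPM, the progenitor sum 53.8 and 82.6 CPM and the osteoblast sum 7452 and 4958 CPM. Their part in the GTPase differences was not tested.

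**Figure D3:**
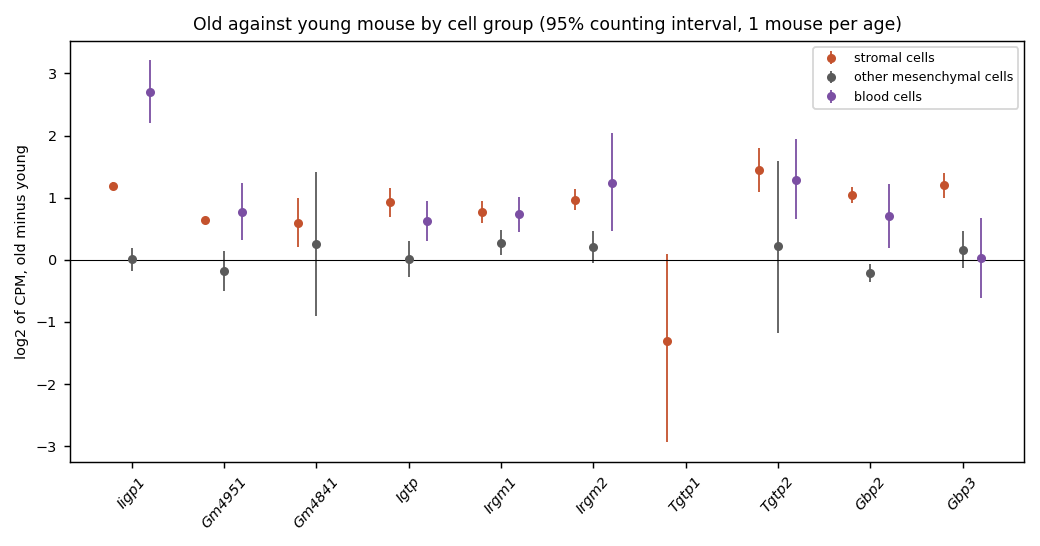
Old minus young difference in level (log2 of CPM, 95% counting interval, 1 mouse per age) of the GTPase genes in stromal (red), other mesenchymal (grey) and blood cells (purple), shown where the group held at least 20 UMIs over both mice. Stromal values of 9 genes lie between 0.60 and 1.44, and other mesenchymal values lie between -0.21 and 0.28.

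Stromal cells were also split by a UMI of other genes. Cells with and without a UMI of Grem1, which encodes a secreted BMP antagonist, had Iigp1 at 210 and 261 CPM (young) and at 501 and 517 CPM (old). Gbp2 stood at 35.6 CPM (32.6 to 38.8) with and 53.6 CPM (46.4 to 61.6) without Grem1 in the young mouse, and at 78.6 and 89.1 CPM in the old mouse. Old cells without Grem1 had more Igtp, 39.1 CPM (32.9 to 46.0) against 21.2 CPM (18.7 to 24.0), and more Irgm1, 59.8 CPM (52.2 to 68.3) against 38.1 CPM (34.7 to 41.7), while in the young mouse the intervals of both genes overlapped. Cells without Grem1 were shallower, with medians of 3862 against 5816 UMIs (young) and 5994 against 9154 UMIs (old). Cdkn2a, which encodes p16 and also the Arf protein, had a UMI in 23 young and 33 old stromal cells. Cells with a Cdkn2a UMI were deeper, with medians of 7231 against 5204 UMIs (young) and 10699 against 8332 UMIs (old). In them, Iigp1 stood at 386 CPM (303 to 485) and 287 CPM (236 to 345), against 219 and 510 CPM in cells without, so the order was opposite in the 2 mice. Cells without a UMI of Cxcl14, a chemokine gene, numbered 159 (young) and 108 (old) and were shallow, with medians of 1381 and 1382 UMIs. Iigp1 was alike with and without Cxcl14, at 221 and 223 CPM (young) and 505 and 513 CPM (old). In the old mouse other genes were lower without it: Gm4951 stood at 229 CPM (176 to 291) against 358 CPM (349 to 367), Gbp2 at 28.1 CPM (12.1 to 55.4) against 82.0 CPM (77.6 to 86.6), Irgm2 at 10.6 CPM (2.18 to 30.8) against 45.8 CPM (42.5 to 49.2), and Igtp had 0 UMIs, with an upper limit of 12.97 CPM, against 25.8 CPM (23.3 to 28.4). The part of depth in these differences was not tested.

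CD24 was the surface protein the study measured, and it had no part in choosing the genes. Antibody counts above 319 in the young and 410 in the old library called 136 of 3060 young and 46 of 1880 old stromal cells CD24+. The CD24+ cells were deeper on average: 136 young cells held 1500583 UMIs, against 16681117 in 2924 CD24- cells. In the old mouse, 46 cells held 582321 UMIs, against 15327490 in 1834 CD24- cells. Median antibody counts were 84.5 and 84 in stromal cells, 3108 and 4916 in erythroid cells and 2373 and 2100 in B-lineage cells. The part of depth and of mixed droplets in the CD24 differences was not tested. All 9 tested GTPase genes stood lower in CD24+ stromal cells in both mice, and none passed the threshold. Iigp1 was at 152 CPM (133 to 173) in CD24+ and 227 CPM (220 to 234) in CD24- cells of the young mouse, and at 374 CPM (326 to 427) and 510 CPM (498 to 521) in the old mouse. Neither pair of intervals overlapped. Gm4951 was at 186 and 233 CPM (young) and at 280 and 359 CPM (old), again apart in both. For the other genes the intervals of CD24+ and CD24- cells overlapped in at least 1 mouse, and Tgtp2 rested on 1 UMI in young and 6 in old CD24+ cells.

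edgeR's quasi-likelihood method was applied to the 4 sums of UMIs (2 mice by 2 states) with the mouse as a block and Benjamini-Hochberg adjustment over 13317 genes, of which 3.96% were called higher and 0.466% lower in CD24+ cells. The log2 difference for Iigp1 was -0.45 (SE 0.15, edgeR adjusted p = 0.0835), for Gm4951 -0.28 (SE 0.15, edgeR adjusted p = 0.414) and for Irgm2 -0.61 (SE 0.25, edgeR adjusted p = 0.251). Of the 9 genes, 0 were called by edgeR and 0 by DESeq2, and 3 had an unadjusted edgeR p below 0.05 (Iigp1, Irgm2 and Tgtp2). Without a filter on low counts Iigp1 alone was called, at -0.52 (edgeR adjusted p = 0.0250). Among the listed genes outside the 10, the IRG gene Ifi47 was called lower at -0.71 (edgeR adjusted p = 0.0394) and the Ifi200 family gene Ifi203 at -0.74 (edgeR adjusted p = 0.0234). Both lost the call with doublets removed, in thinned cells, with DESeq2, without the mouse block and with another antibody cut. Without the mouse block the whole comparison called 18 genes in place of 590, and 0 of the 9.

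**Figure D4:**
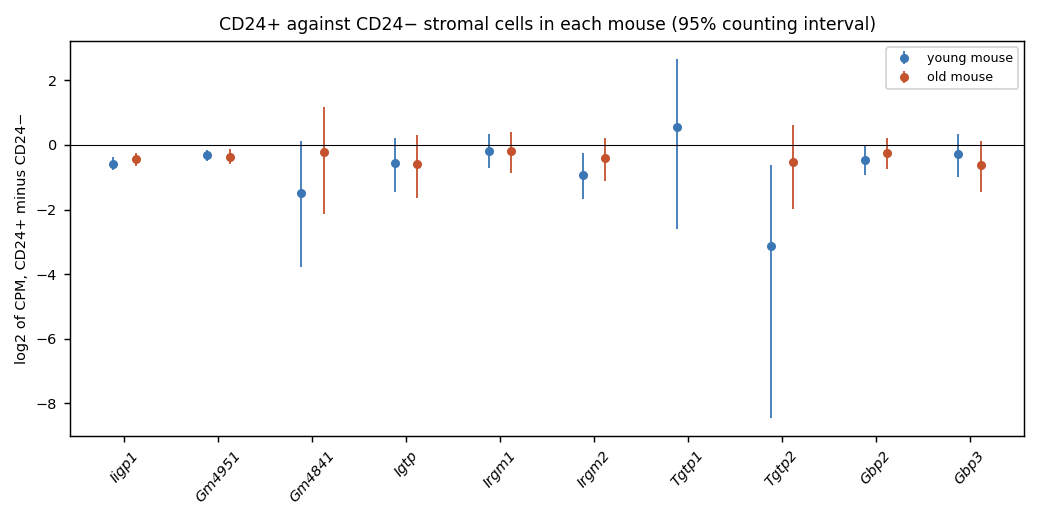
CD24+ minus CD24- difference in level (log2 of CPM, 95% counting interval) of each GTPase gene within the stromal cells of the young (blue) and old (red) mouse. Points of 9 genes lie below 0 in both mice, with short intervals for Iigp1 and Gm4951 only, and Tgtp1 has no old point because its CD24+ cells held 0 UMIs.

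The pathway around the GTPases was then compared between stromal and other mesenchymal cells, with genes that the rule had not used. Their lists were chosen with earlier results of these data known. edgeR was run on 4 sums (2 mice by 2 groups) with the mouse as a block. It called 24.9% of 15168 genes higher and 26.9% lower in stromal cells. The fit puts the median of all tested genes at 0.02, while the median CPM ratio of the same genes (log2) was 0.19 (young) and 0.24 (old), so fitted values lie about that far below CPM ratios. The fitted log2 values of the 9 GTPase genes with enough UMIs, given without a test, had a median of 1.88.

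Of the other interferon-inducible GTPases, 17 of 21 listed symbols were in the files and 11 had enough UMIs. Of these, 7 were higher in stromal cells, 1 was lower and 3 were not called. F830016B08Rik, an IRG gene, was at 123 and 196 CPM in stromal cells (young and old), with a fitted difference of 5.06 (SE 0.15, edgeR adjusted p = 0.000249). Gvin1, a very large inducible GTPase, differed by 4.06 (SE 0.27, edgeR adjusted p = 0.00108), and Ifi47, an IRG gene, by 3.40 (SE 0.26, edgeR adjusted p = 0.00142). Gbp5, Gbp6 and Gbp7 differed by 2.58, 1.28 and 0.99. Gbp9 was lower in stromal cells by -1.85 (edgeR adjusted p = 0.0281), with 8 and 12 stromal UMIs, a call that DESeq2 did not make, and Irgq and 9930111J21Rik2 were not called (-0.20 and -1.02). Like Igtp, Ifi47 was highest in megakaryocytes, at 131 and 191 CPM against 42.7 and 72.3 CPM in stromal cells. The median of the 11 genes was 1.28.

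Among receptors and kinases, 5 of 7 were higher in stromal cells and 1 was lower. The type I receptor chain Ifnar2 was at 371 and 367 CPM and differed by 1.41 (SE 0.08, edgeR adjusted p = 0.000640), and the gamma receptor chains Ifngr2 and Ifngr1 by 1.39 and 0.88. Jak1, the kinase shared by both receptors, was called lower at -0.27 (edgeR adjusted p = 0.0435), a call that DESeq2 and the fit of all 6 sums did not make (adjusted p = 0.125 and 0.139). Of the interferon regulatory factor genes, Irf3 was higher by 0.96, Irf2 by 0.58 and Irf1 by 0.52 (edgeR adjusted p = 0.0199 for Irf1). The ligands were nearly silent: of 20 interferon genes, 19 had 0 UMIs in the stromal cells of both mice, and Ifnz had 7 and 1. A floor of 3 UMIs, which is not the exact limit, stands there at 0.165 CPM (young) and 0.189 CPM (old). In other mesenchymal and blood cells, Ifnz had 2 to 5 UMIs per group and mouse and Ifng had 1 UMI in all.

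The response genes divided. Of 16 tested genes of the gamma response, 14 were higher in stromal cells and 0 lower, with a median of 1.23. Among them, the chemokine gene Cxcl9 was at 148 and 338 CPM and differed by 5.56 (SE 0.20, edgeR adjusted p = 0.000308), the adhesion molecule gene Vcam1 by 3.60 and the immunoproteasome gene Psmb8 by 1.90. Of 28 tested genes of the type I response, 15 were higher and 3 lower, with a median of 0.96. Bst2, which tethers budding virus, was higher by 1.91 and Lgals3bp, a secreted glycoprotein gene, by 2.06, whereas Ifi27l2a, Ifi204 and Ifit2 were lower by -3.14, -0.78 and -0.84. Of 7 negative regulators, Trim21 was higher by 0.91 (DESeq2 adjusted p = 0.0534) and Socs1, the inhibitor of JAK kinases, lower by -1.39 (edgeR adjusted p = 0.000594). The ATG8 conjugation genes, whose products guide IRGs and GBPs to vacuoles, held 0 higher and 2 lower genes among 10, Gabarap and Gabarapl1, by -0.72 and -0.70.

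**Figure D5:**
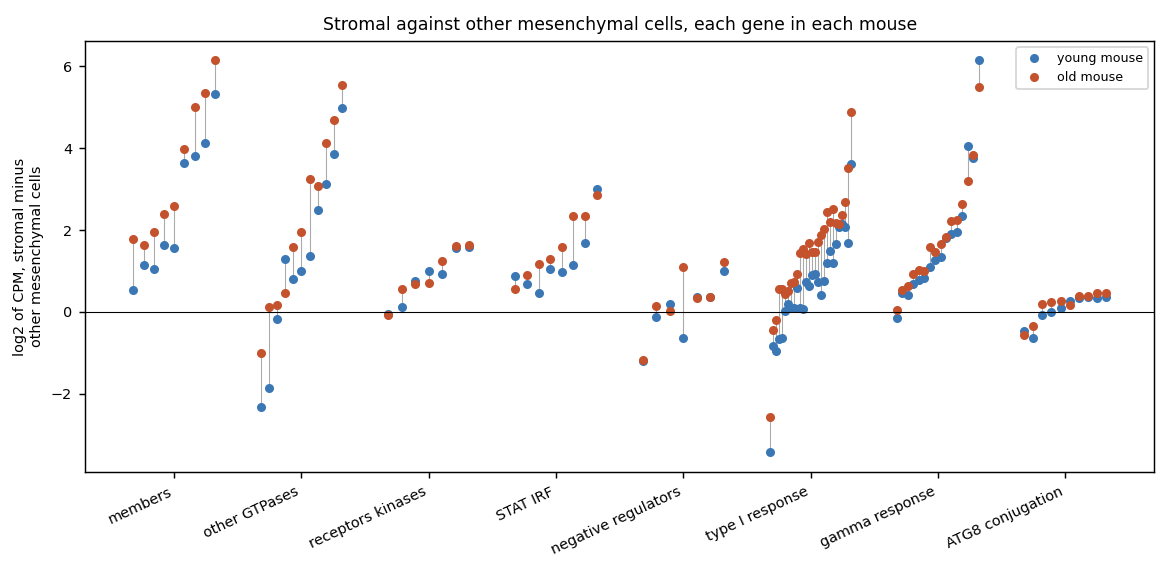
Stromal minus other mesenchymal difference in level (log2 of CPM) of each tested gene in the young (blue) and old (red) mouse, with a line joining the 2 mice, for the GTPase genes of the report (members, 9 of 10, without Tgtp1) and 7 other lists. The GTPase genes lie between 0.53 and 6.14, and the ATG8 conjugation genes lie between -0.65 and 0.47.

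The same lists were read between the ages in stromal cells, where no test is possible. Of 10 other GTPases with at least 20 UMIs, 2 were 2-fold or more higher in the old mouse (Gm12185 and 9930111J21Rik2), and the list median was 0.77. The type I list had 9 of 28 genes past 2-fold and a median of 0.67. The gamma list had 2 of 16, Cxcl9 at 1.19 (1.12 to 1.26) and Cxcl10 at 1.32 (1.20 to 1.45), with a median of 0.07, and Psmb8 and Vcam1 stood at 0.00 and 0.07. Receptors and kinases had 0 of 7 and a median of -0.02. Irf7, the type I-induced factor, was past 2-fold at 1.14 (0.95 to 1.34). Irf1 stood at -0.36 (-0.43 to -0.28), with 195 CPM in young and 152 CPM in old stromal cells. Usp18, a feedback inhibitor of type I signalling, was past 2-fold at 1.06 (0.72 to 1.41). In other mesenchymal cells the type I list had 0 of 28 past 2-fold and a median of -0.09, where the GTPase genes had a median of 0.16. The gamma list had 2 of 16 there, again Cxcl9 (2.09 and 7.53 CPM) and Cxcl10 (12.6 and 31.0 CPM), and a median of -0.11. In blood cells the type I list had 11 of 29 past 2-fold and a median of 0.81, and the median of all genes was -0.13.

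Genes outside the 10 were ranked by the likeness of their profile over classes. The mean of the 10 (log2 of CPM plus 5, over 22 profiles from 11 classes of 2 mice) was compared with 13053 genes that had at least 100 UMIs in each library, by Pearson correlation as a description. Adcyap1r1 (0.95), the receptor of the peptide PACAP, Cxcl9 (0.94), F830016B08Rik (0.93), Gvin1 (0.92) and Mrap (0.92), a melanocortin receptor accessory protein, came first, followed by Gm16685, Plscr2, Gm10309, Adamdec1 and Gm9913 (0.92 to 0.91). The profiles share libraries and depth, and the 2 mice repeat the same classes. Of the 10 themselves, Igtp (0.38) and Tgtp1 (0.44) were the least like that mean. Among pairs of the 10, Iigp1 was most like Gm4951 (0.94) and Irgm2 (0.92), and Igtp was least like the rest, with correlations between 0.09 and 0.35.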

How the data were processed

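The deposited values are raw UMI counts per gene and cell, 1 matrix for each mouse, which the authors made from 10x Genomics 3' libraries with Cell Ranger. The matrices' headers name Cell Ranger 6.1.1, the study's methods name another release, and the submitters' notes give mouse build mm10. An antibody row of each matrix holds the CD24 counts. The authors filtered cells in Seurat 4.0, and the limits of 200 genes and 20% mitochondrial UMIs follow their methods.

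Each cell received a score per class, the mean over its markers of log-normalised UMIs scaled to the 0.99 quantile of each marker, and took the highest class if its score reached 0.25 and led the next by 0.05. Cells that missed either limit were unassigned (1524 young and 805 old). Counts were summed per mouse and group. edgeR 4.0.16 (R 4.3.3) was run on these sums with filterByExpr, TMM and a mouse term. The 2 sums of each mouse come from 1 library, which the mouse term pairs. That each library is 1 animal is assumed, and p-values rest on 2 libraries. Calls used a Benjamini-Hochberg adjusted p under 0.05. DESeq2 1.42.0, other cell filters and thinning were alternatives. Intervals were computed in SciPy 1.17.1 and thinning used a fixed seed. The fits were tested on simulated data.

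The 10 genes and all lists were chosen with earlier results of these data known. Beyond the 10 genes, the text names listed GTPases with 10 or more stromal UMIs in each library, the 4 genes of each other list with the most stromal UMIs, any calls of a list that number 5 or fewer, and the 10 genes with the most similar profile. Irf7, Usp18, Cxcl10 and Gm12185 were named for the ages after their values were seen, as were the cell subsets and the levels of Ifi47 by class. No total of a library other than its matrix sum was used. Results for 1 listed gene are not reported here.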

Additional observations from a re-analysis of the deposited data

Results flagged for a closer look

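The old minus young difference of Gbp2 had opposite signs in different cell groups of the same 2 libraries. This old minus young difference (log2 of CPM) was 1.04 in stromal cells (39.3 to 81.0 CPM), -0.21 in other mesenchymal cells (27.2 to 23.5 CPM) and 0.70 in blood cells (3.51 to 5.70 CPM), and each counting interval lay off 0. Each group mixes classes whose shares differ between the mice: fibroblasts, the class highest for Gbp2 among other mesenchymal cells, gave 64.1% (young) and 56.1% (old) of the UMIs of that group. Within its classes the difference was -0.05 (-0.21 to 0.11) in fibroblasts, -0.25 (-0.83 to 0.33) in tendon cells, -0.57 (-1.21 to 0.06) in osteoblasts, 0.32 (-1.61 to 2.05) in chondrocytes and 0.39 (-1.06 to 1.91) in pericytes or smooth muscle, and each of these intervals spanned 0. In blood it was -1.81 (-3.94 to -0.02) in erythroid cells on 4 old and 10 young UMIs, 0.83 (-0.01 to 1.68) in progenitors, and 2.07 (0.59 to 4.01) in the neutrophil class, where 1 old cell held 11 of 39 UMIs. The difference between the groups was not tested, since each age had 1 mouse.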

How the results depend on the processing

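The calls between stromal and other mesenchymal cells numbered 7857 in all, 4925 with DESeq2 and 7462 without the replicate block for the mouse. The CD24 comparison called 590 genes, and 212 with doublets removed, 96 in thinned cells, 179 with DESeq2 and 18 without the replicate block. The GTPase genes called there numbered 0, and 1 (Iigp1) without a filter on low counts. Cxcl9 turned from -0.47 to 0.23 (edgeR adjusted p = 0.0491) with the upper quartile of antibody counts as CD24+. The share of stromal cells with a UMI of any of the 10 genes was 79.4% (young) and 90.1% (old), against 24.7% and 34.5% in erythroid cells. The young share was 81.1% with a mitochondrial limit of 10%, 56.5% in thinned cells and 45.0% for 2 UMIs, and the old share 92.2% with a stricter marker cut, 73.0% in thinned cells and 70.7% for 2 UMIs. Of 389 alternative values for listed genes between stromal and other mesenchymal cells, 382 kept direction and call, 6 lost the call (Jak1, Trim21 and Gbp9) and 1 gained it (9930111J21Rik2 in thinned cells). Of 59 alternative values of the age difference in stromal cells, 56 stayed within the counting interval. With 1 mouse per age, and with sparse counts for Tgtp1, Tgtp2 and Gm4841, small differences were not detectable.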

Other observations

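Cells that no class took held some of these mRNAs as well. Iigp1 had 109 UMIs in the 1524 young and 195 UMIs in the 805 old unassigned cells, and 1 young cell held 58 of the 109. Gbp2 stood at 14.5 and 15.8 CPM in the same cells.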
